A study of Drosophila melanogaster with 4 samples.

Results

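The genes described here encode translation initiation factors of Drosophila melanogaster. They are the 28 of 14161 gene symbols in the deposited tables that start with eIF, taken by name alone and not by their values. RNA was measured in dvpdf neurons from brains, in 4 libraries. The libraries labelled NonA RNAi (n = 2) came from flies in which nonA, the gene of a nuclear RNA-binding protein, was targeted by RNA interference in those cells. The libraries labelled control (n = 2) carry the same treatment text and are told apart by the sample type alone. No age, sex, time of day or number of flies is given, and nothing says that replicates came from separate animals, so the p-values reflect no more than how these 4 libraries vary, and that variation may be technical. All values rest on amplified mRNA.

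Initiation factors bring the ribosome to the start codon. eIF2 carries the initiator tRNA, and eIF2B recharges eIF2 with GTP. eIF3 is a large scaffold on the small ribosomal subunit. The cap-binding protein eIF4E, the scaffold eIF4G and the helicase eIF4A load the small subunit onto the mRNA. eIF5 and eIF5B act at start codon recognition and at the joining of the large subunit. Stress kinases phosphorylate eIF2alpha and the 4E-binding protein Thor sequesters eIF4E, and both brakes lower protein synthesis. In clock neurons, translation of clock proteins is known to be regulated.

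Gene reads numbered 9673275 and 8558125 in NonA RNAi replicates 1 and 2, and 8419248 and 9832771 in control replicates 1 and 2. Levels are given in CPM (reads scaled to 1000000 gene reads), where 3 reads correspond to between 0.305 and 0.356 CPM. Reads are not independent molecules after amplification, so intervals and floors given for counts hold for counting error alone. NonA RNAi replicate 1 stood apart in its reads: 22.0% of all entries were gene reads and 45.2% aligned to several places, while the other 3 libraries had 15.9% to 16.5% and 53.7% to 55.6%. The targeted gene nonA was at 168 and 283 CPM under the NonA RNAi label, against 256 and 241 CPM in the controls. Its groups overlapped, with a log2 fold of -0.14 and a standard error of 0.48 (edgeR quasi-likelihood test, Benjamini-Hochberg adjusted p = 0.994). In NonA RNAi replicate 2 the level of nonA was not below the controls, so every direction given below for the libraries labelled NonA RNAi rests on the label alone.

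The labelled cell type was checked against marker lists. Pan-neuronal genes summed to 3256 and 5161 CPM under the NonA RNAi label, against 5135 and 3791 CPM in the controls. Within this sum, Snap25 was at 228 and 1531 CPM under NonA RNAi, against 1271 and 608 CPM in controls. Of the 8 genes, 3 had a higher and 5 a lower mean under NonA RNAi, with a median log2 fold of -0.02. Clock and PDF neuron genes summed to 25611 and 92588 CPM under NonA RNAi, against 10241 and 4944 CPM in controls, with Pdf, the gene of a clock neuropeptide, at 18436 and 86575 CPM under NonA RNAi, against 4979 and 2159 CPM in controls. All 9 glial genes had reads and summed to 389 and 2255 CPM under the NonA RNAi label, against 1868 and 6077 CPM in the controls. The 9 fat body genes summed to 183 and 10.75 CPM under NonA RNAi, against 3352 and 26.8 CPM in controls, with 4 of them at 0 in both NonA RNAi libraries. The 10 photoreceptor genes summed to 132 and 253 CPM under NonA RNAi, against 363 and 503 CPM in controls, and the 8 hemocyte genes to 969 and 454 CPM under NonA RNAi, against 914 and 412.5 CPM in controls. Of the hemocyte genes, Hml, srp, nimC1 and He were at 0 in NonA RNAi replicate 1, while Pxn made up nearly all of the sum there. Pxn was at 955 and 155 CPM under NonA RNAi, against 322 and 151 CPM in controls, and proPO-A1 had 7 reads in NonA RNAi replicate 1 and 0 in the other libraries. The part of these differences in the results below was not tested, and in bulk libraries fewer cells of a type and less RNA per cell cannot be told apart.

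Of the 28 genes, 23 had reads in every library and a mean above 10 CPM. Another 2, eIF4E-4 and eIF4E-6, had a mean above 1 CPM, the limit for testing. The last 3, eIF4E-3, eIF4E-5 and eIF4E-7, had 0 reads in all 4 libraries. Summed over the 28 genes, the level was 5509 and 5637 CPM under the NonA RNAi label, against 5177 and 5929 CPM in the controls. The means were 5573 ± 90.8 CPM under NonA RNAi and 5553 ± 532 CPM in controls (SD, n = 2 each). The sums of the groups overlapped, and their means differed by 0.352%.

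**Figure D1:**
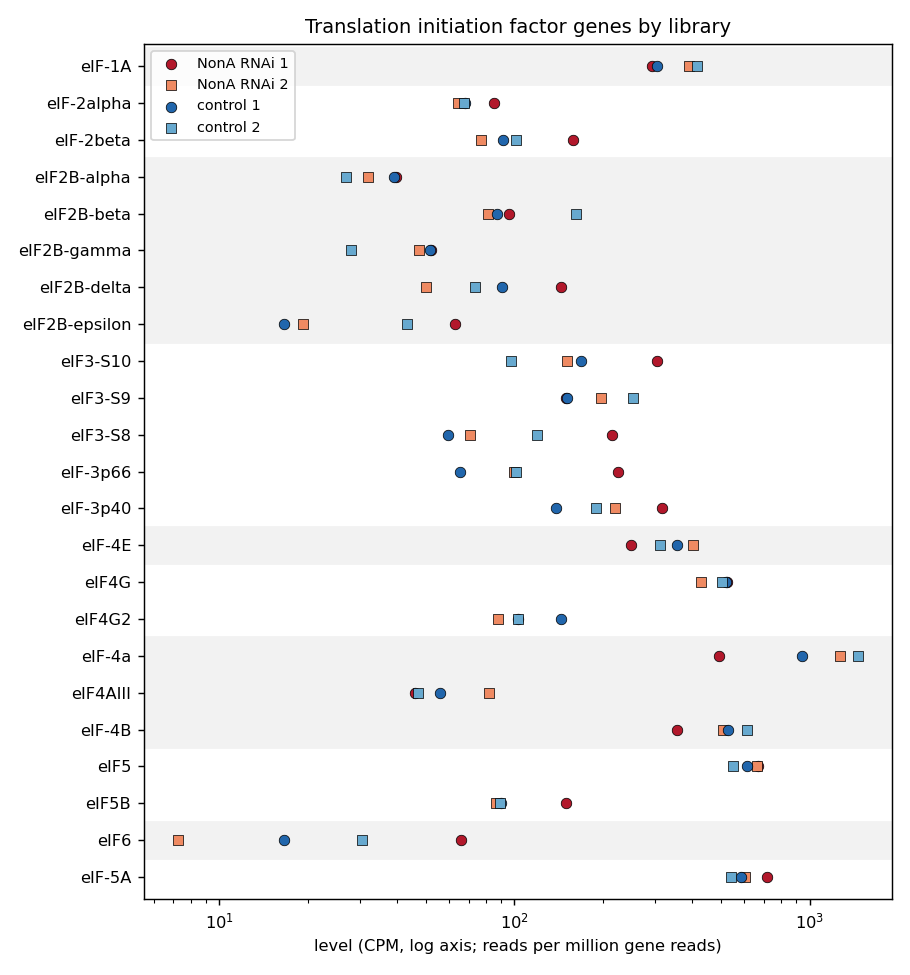
Level in CPM (log axis) of the 23 initiation factor genes with a mean above 10 CPM, 1 row per gene, with 1 point for each of the 4 libraries and grey bands that separate roles. In 15 of the 23 rows NonA RNAi replicate 1 is the highest point, and eIF6 spreads from 7.24 to 65.6 CPM within the NonA RNAi group.

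No initiation factor gene passed the test of a difference between the groups. In edgeR's quasi-likelihood test over 9404 genes, 0 of the 25 tested members passed an adjusted p of 0.05, where 0% of all genes passed. The adjusted p of the members lay between 0.919 and 0.997. No member reached an unadjusted p of 0.05 either, the smallest being 0.136, while 4.86% of all genes did (457 genes). DESeq2, run as an alternative, called 0 members and 1.55% of all genes. Of the 25 members, 16 had a higher and 9 a lower mean in the libraries labelled NonA RNAi, and 49.6% of all genes had a positive log2 fold. The median log2 fold of the members was 0.23, that of all genes tested -0.01. Without NonA RNAi replicate 1 the members' median was -0.04 and that of all genes -0.13.

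Both NonA RNAi libraries lay above both controls for 3 members, eIF-3p40, eIF5 and eIF-5A, and below both for 1, eIF-4B. That is 4 of 25, or 16%, where 32.8% of all genes had groups that did not overlap, 15.2% above and 17.5% below. With TMM scaling 7 members were apart (28%, and 32.8% of all genes), and eIF-4B was not among them. With median-of-ratios scaling 6 were apart (24%, and 32.8% of all genes), eIF-4B among them. With 2 libraries a group, no permutation test of a single gene can reach 0.05.

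**Figure D2:**
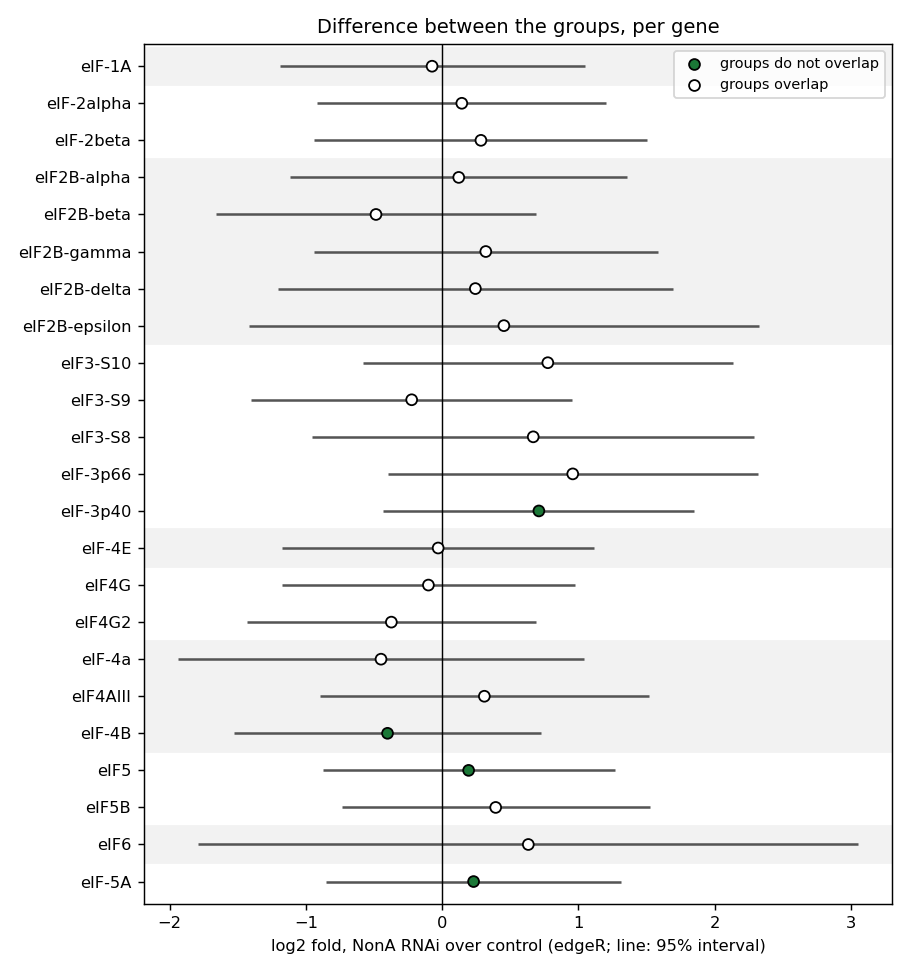
Log2 fold of NonA RNAi over control from edgeR for the same 23 genes, with the 95% interval as a line and filled points where the groups do not overlap. Each interval spans 0, and the folds run from -0.49 for eIF2B-beta to 0.96 for eIF-3p66.

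Distances between replicates were set beside the distance between the groups. For 21 of the 23 genes (91.3%), the distance between the group means on the log2 scale was smaller than the larger of the distances between replicates. The same held for 80.5% of 7139 genes with a mean of at least 10 CPM and reads in every library. Means of 2 libraries vary less than single libraries, and the larger replicate distance was taken, so most genes without a group difference would give this outcome. The median replicate distance of the 23 genes was 1.44-fold between the NonA RNAi libraries and 1.37-fold between the controls, against 1.57-fold and 1.43-fold over all such genes. NonA RNAi replicates were more than 2-fold apart for 8 of the 23 genes (34.8%, and 32.0% of all such genes), and the controls for 1 (4.35%, and 22.7% of all such genes). That 1 gene was eIF2B-epsilon. NonA RNAi replicate 1 was the highest library for 16 of 25 members (64%), while it was highest for 32.6% of all genes tested. Control replicate 1 was highest for 1 member (4%), while it was highest for 26.1% of all genes.

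The eIF3 complex held the 3 members with the smallest p. Per RefSeq, eIF3-S10, eIF3-S9, eIF3-S8, eIF-3p66 and eIF-3p40 are subunits a, b, c, d1 and h of eIF3. eIF-3p66 was at 224 and 99.7 CPM under the NonA RNAi label, against 65.2 and 101 CPM in the controls. Its means were 162 ± 87.6 CPM under NonA RNAi and 83.2 ± 25.4 CPM in controls (SD, n = 2 each), and NonA RNAi replicate 2 lay below control replicate 2, so that the groups overlapped. The log2 fold was 0.96 (standard error 0.56, edgeR adjusted p = 0.919). Without NonA RNAi replicate 1 it was 0.26.

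eIF-3p40 was the only one of these 5 subunits with groups apart, at 316 and 219 CPM under the NonA RNAi label against 138 and 189 CPM in the controls. Its log2 fold was 0.71 (standard error 0.47, edgeR adjusted p = 0.924), and lay between 0.42 and 0.96 whichever library was left out. In the current Ensembl annotation 16.8% of its exonic bases overlap a gene on the other strand, senju, and no source states whether reads were counted by strand. In all, 8 of the 28 members shared more than 5% of exonic bases with another gene. Among them, eIF-2alpha shared 12.6% with rngo on the other strand, and eIF4G2 8.56% with CG33111 on the same strand.

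eIF3-S10, the scaffold subunit a, was at 304 and 150.3 CPM under NonA RNAi, against 168 and 97.0 CPM in controls (log2 fold 0.77, standard error 0.56). eIF3-S8 was at 213 and 70.5 CPM under NonA RNAi, against 59.5 and 119 CPM in controls (log2 fold 0.67, standard error 0.67, and -0.34 without NonA RNAi replicate 1). eIF3-S9 had its highest value in a control, at 149.6 and 196 CPM under the NonA RNAi label against 151 and 253 CPM in the controls (log2 fold -0.22, standard error 0.49). The edgeR adjusted p of these 3 genes was 0.934, 0.956 and 0.988.

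Other eIF3 subunits carry older symbols in the tables. Int6 (subunit e) was at 214 and 157 CPM under the NonA RNAi label, against 111 and 139 CPM in the controls. Tango7 (subunit m) was at 264 and 263 CPM under NonA RNAi, against 108 and 217 CPM in controls. Both had groups apart, with a log2 fold of 0.57 (standard error 0.45) for the one and 0.69 (standard error 0.51) for the other. Trip1, Adam, CG8636, CG9769 and CG10306 (subunits i, j, g1, f1 and k) overlapped between the groups, at log2 folds from 0.09 for Adam to 0.59 for CG8636. CG4810, CG10881 and CG8335, copies of subunits d, g and f, had 0 reads but for 2.85 CPM of CG8335 in control replicate 1, and were not tested.

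Over the 12 tested eIF3 subunits of either naming, 11 had a higher mean in the libraries labelled NonA RNAi, while 49.6% of all genes had a positive log2 fold. Of the 12, 0 passed edgeR's test and 3 had groups apart (25.0%, where 32.8% of all genes did). NonA RNAi replicate 1 was highest for 9 of the 12, and for 32.6% of all genes tested. Control replicate 1 was lowest for 9 of the 12, and for 24.3% of all genes tested. Over all 15 listed eIF3 genes, tested or not, the summed level was 2481 and 1945 CPM under the NonA RNAi label. It was 1275 and 1832 CPM in the controls, so that the sums did not overlap. The median log2 fold of the 12 tested subunits was 0.58. It was 0.25 without NonA RNAi replicate 1, 0.74 without NonA RNAi replicate 2, 0.27 without control replicate 1 and 0.93 without control replicate 2. The medians of all genes were -0.13, -0.05, 0.05 and 0.04 in the same order. NonA RNAi replicate 1, which leads the order, is also the library with the largest share of gene reads, and the part of this in the eIF3 values was not tested.

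**Figure D3:**
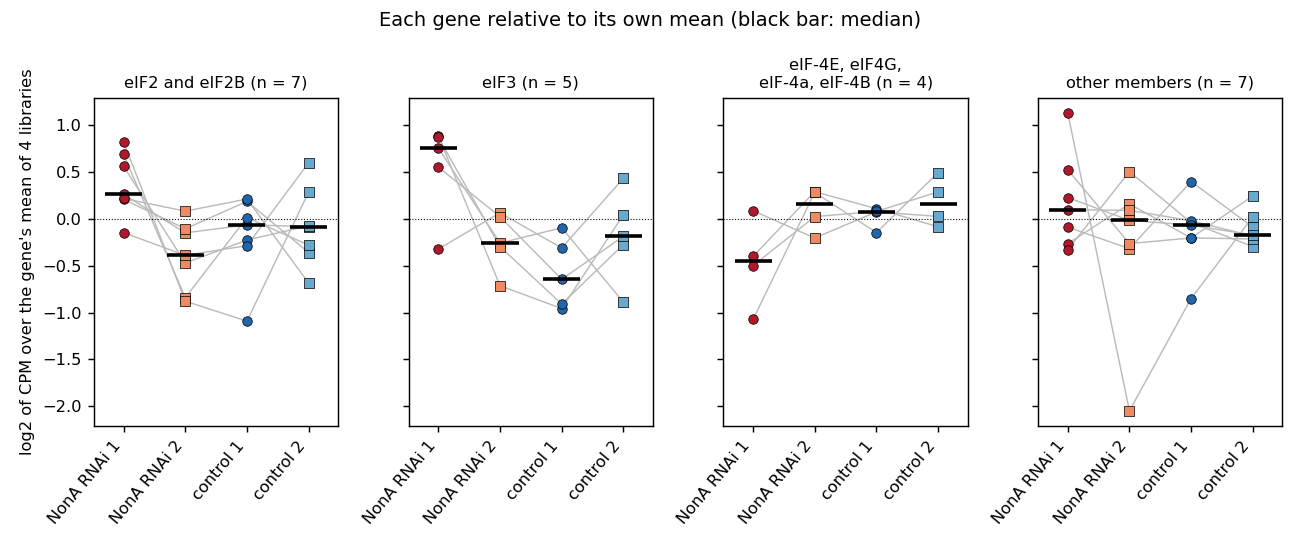
Log2 of each gene's CPM over its own mean of the 4 libraries, in 4 sets of genes, with points for genes, grey lines joining a gene across libraries and black bars for the median. The median of the 5 eIF3 genes is 0.76 in NonA RNAi replicate 1 and -0.65 in control replicate 1, while that of eIF-4E, eIF4G, eIF-4a and eIF-4B is -0.45 in NonA RNAi replicate 1 and above 0 in the other 3 libraries.

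Both eIF2 subunit genes with an eIF symbol were highest in NonA RNAi replicate 1. eIF-2beta was at 157 and 76.9 CPM under the NonA RNAi label, against 91.1 and 101 CPM in the controls (log2 fold 0.28, standard error 0.50). eIF-2alpha, the subunit that stress kinases phosphorylate, was at 85.3 and 64.1 CPM under NonA RNAi, against 68.1 and 67.2 CPM in controls (log2 fold 0.14, standard error 0.44). For both, the NonA RNAi libraries lay on either side of the controls, and without NonA RNAi replicate 1 the log2 folds were -0.32 and -0.076. The 95% interval of the log2 fold of eIF-2alpha ran from -0.92 to 1.20.

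Of the 5 eIF2B subunit genes, 4 had a higher and 1 a lower mean, and none had groups apart. eIF2B-epsilon encodes the catalytic subunit of the exchange factor. It was at 62.6 and 19.3 CPM under the NonA RNAi label, against 16.6 and 43.2 CPM in the controls, a spread in each group larger than the difference between the groups. eIF2B-delta was at 144 and 50.01 CPM under NonA RNAi, against 90.4 and 73.7 CPM in controls. The log2 folds of these 2 genes were 0.45 and 0.24, and without NonA RNAi replicate 1 they were -0.63 and -0.71.

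eIF2B-beta had its highest level in a control, at 96.1 and 81.3 CPM under the NonA RNAi label against 87.3 and 161 CPM in the controls (log2 fold -0.49, standard error 0.49, edgeR adjusted p = 0.956). Without control replicate 2 its log2 fold was 0.02. eIF2B-gamma was at 52.1 and 47.4 CPM under NonA RNAi, against 51.9 and 27.9 CPM in controls, and eIF2B-alpha at 39.8 and 32.0 CPM under NonA RNAi, against 39.2 and 26.8 CPM in controls. In both, control replicate 2 was the lowest library, and without it the log2 folds were -0.061 and -0.13.

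The genes of cap recognition and unwinding had their lowest values in NonA RNAi replicate 1 for 3 of 4. eIF-4a, the RNA helicase, was at 493 and 1263 CPM under the NonA RNAi label against 938 and 1460.4 CPM in the controls. Its means were 878 ± 544 CPM under NonA RNAi and 1199 ± 369 CPM in controls (SD, n = 2 each), and the log2 fold of -0.45 had a standard error of 0.61 (edgeR adjusted p = 0.981). Leaving out NonA RNAi replicate 1 gave a log2 fold of 0.07.

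eIF-4B, which stimulates the helicase, was at 354 and 509 CPM under NonA RNAi, against 529 and 612 CPM in controls. Its groups were apart by a small margin and overlapped with TMM scaling. The log2 fold was -0.40 (standard error 0.46, edgeR adjusted p = 0.964). eIF-4E, the main cap-binding gene, was at 249 and 402 CPM under NonA RNAi, against 354 and 309.9 CPM in controls, so that the NonA RNAi libraries enclosed the controls. Its log2 fold was -0.03, and 0.02 with TMM scaling. The scaffold gene eIF4G was at 526 and 429 CPM under NonA RNAi, against 521 and 504 CPM in controls (log2 fold -0.10, standard error 0.44).

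eIF4AIII belongs to the same helicase family but is a core part of the exon junction complex that marks spliced mRNA. It was at 45.9 and 81.8 CPM under the NonA RNAi label, against 56.1 and 47.0 CPM in the controls (log2 fold 0.31, standard error 0.50). eIF4G2, a paralogue of eIF4G known for its role in the male germ line, was at 103 and 87.6 CPM under NonA RNAi, against 144 and 103 CPM in controls (log2 fold -0.37, standard error 0.44). NonA RNAi replicate 1 and control replicate 2 nearly coincided for this gene, and with TMM scaling its groups were apart.

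Of the 6 genes named for eIF4E, eIF-4E alone was read in every library. eIF4E-6 had 0 and 35 reads in NonA RNAi replicates 1 and 2, against 0 and 57 reads in control replicates 1 and 2. eIF4E-4 had 51 and 5 reads under NonA RNAi, against 0 and 15 reads in controls. eIF4E-6 was thus read in 1 library of each group, at 4.09 CPM in NonA RNAi replicate 2 (exact Clopper-Pearson 95% binomial interval 2.85 to 5.69) and 5.80 CPM in control replicate 2 (4.39 to 7.51). eIF4E-3, which serves spermatogenesis, eIF4E-5 and eIF4E-7 had 0 reads. A floor of 3 reads per library corresponds to 0.310 and 0.351 CPM under the NonA RNAi label and 0.356 and 0.305 CPM in the controls. The exact 95% interval for 0 reads reached somewhat higher, to 0.381 and 0.431 CPM under NonA RNAi and 0.438 and 0.375 CPM in controls. 4EHP, a cap-binding repressor of the family, was at 92.2 and 129 CPM under the NonA RNAi label, against 132 and 162 CPM in the controls (log2 fold -0.41, standard error 0.44). Reads that align to several places were not counted for genes, so levels of near-identical copies are uncertain.

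The remaining members act in scanning, subunit joining and on the large subunit. eIF5, the GTPase activator of eIF2, was at 667 and 664 CPM under the NonA RNAi label, against 614 and 549 CPM in the controls. Its NonA RNAi replicates nearly coincided and its groups were apart. The log2 fold was 0.19 (standard error 0.44, edgeR adjusted p = 0.991). In the Ensembl annotation 80.8% of its exonic bases are shared with CG46312 on the same strand, a gene that the tables do not list.

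eIF-5A, whose protein carries the modified residue hypusine and which RefSeq now lists as an elongation factor, eEF5, was at 716 and 605 CPM under NonA RNAi, against 584 and 542 CPM in controls. Its groups were apart, with a log2 fold of 0.23 and a standard error of 0.45 (edgeR adjusted p = 0.988). eIF-1A, which promotes scanning, was at 292 and 391 CPM under NonA RNAi, against 304 and 415 CPM in controls, so that in each group replicate 1 was the lower one. eIF5B, the GTPase of subunit joining, was at 149 and 86.6 CPM under NonA RNAi, against 90.3 and 89.6 CPM in controls, and only NonA RNAi replicate 1 departed from the other libraries.

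eIF6 keeps the large ribosomal subunit from joining too early. It was at 65.6 and 7.24 CPM under the NonA RNAi label, against 16.6 and 30.4 CPM in the controls, from 635, 62, 140 and 299 reads. The NonA RNAi replicates differed by 3.18 on the log2 scale, more than those of any other of the 23 genes. Its log2 fold of 0.63 had a standard error of 0.998 and was -1.70 without NonA RNAi replicate 1 and 1.48 without NonA RNAi replicate 2.

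The balance of roles within a library does not depend on the scaling between libraries. The eIF3 genes took 21.9% of the reads of the 28 genes in NonA RNAi replicate 1 and 13.0% in NonA RNAi replicate 2, against 11.2% and 12.8% in the controls. eIF-4a, eIF4AIII and eIF-4B together took 16.2% and 32.9% in the libraries labelled NonA RNAi, against 29.4% and 35.7% in the controls. eIF2B took 7.17% and 4.08% under NonA RNAi, against 5.51% and 5.62% in controls, and the cap-binding eIF4E genes 4.61% and 7.21% under NonA RNAi, against 6.84% and 5.35% in controls. For eIF3 the NonA RNAi shares lay above the control shares, NonA RNAi replicate 2 by a small margin. For the other 3 roles the groups overlapped.

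**Figure D4:**
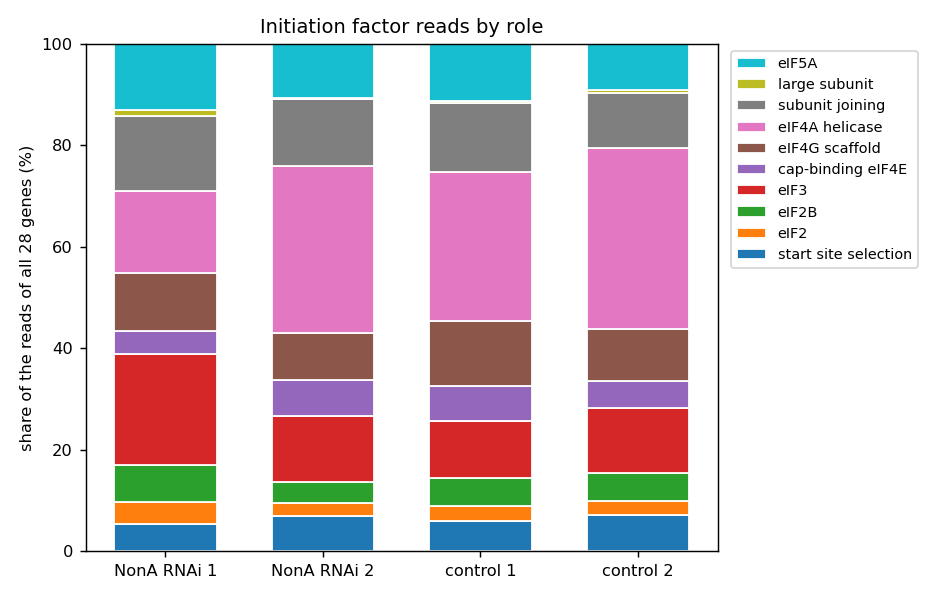
Share of the reads of all 28 genes (percent) taken by each role, stacked for the 4 libraries. The eIF3 share is 21.9% in NonA RNAi replicate 1 and 11.2% to 13.0% in the other libraries, and the share of the eIF4A group is 16.2% in NonA RNAi replicate 1 and 29.4% to 35.7% in the others.

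Levels of different genes were compared per kilobase of exonic length in the Ensembl annotation. Whether reads scale with exonic length after amplification was not tested, which limits this order and the ratios between genes given below. By the mean over the 4 libraries, eIF-5A was highest at 758 CPM per kilobase, a level that 99.2% of 9325 genes did not reach. It was followed by eIF-4a at 419, eIF-4B at 261, eIF-1A at 204 and eIF5 at 195 CPM per kilobase. Without division by length, eIF-5A at a mean of 612 CPM lay below eIF-4a at 1039 and eIF5 at 624 CPM. Per kilobase, eIF-5A was the highest member in each of the 4 libraries. It was at 887 and 749 CPM per kilobase in the libraries labelled NonA RNAi and 723 and 672 in the controls. The median of the 25 tested members was 46.9 CPM per kilobase, against 16.2 over all genes.

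At the low end were eIF2B-epsilon at 14.5 and eIF4G2 at 12.0 CPM per kilobase, above eIF4E-6 at 3.60 and eIF4E-4 at 1.79. Neighbours in this order changed places between libraries. eIF-4a, ranked above eIF-3p40 and eIF5 by the mean, was below both in NonA RNAi replicate 1, at 199 CPM per kilobase against 211 for eIF-3p40 and 208 for eIF5.

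Subunits of a complex were not read at equal levels per kilobase. Within eIF2B, eIF2B-beta was the highest and eIF2B-epsilon the lowest subunit in all 4 libraries. Their ratio was 2.77 and 7.61 in the libraries labelled NonA RNAi, against 9.47 and 6.73 in the controls. Among the 5 eIF3 genes with an eIF symbol, eIF-3p40 was the highest in all 4 libraries. Its ratio to the lowest of the 5 was 3.79 and 6.90 in the libraries labelled NonA RNAi, against 5.14 and 5.08 in the controls, but the lowest subunit was not the same gene throughout. eIF-4a exceeded eIF4AIII per kilobase 6.42-fold and 9.22-fold in the libraries labelled NonA RNAi, against 9.99-fold and 18.6-fold in the controls. eIF4G exceeded eIF4G2 by 7.09-fold and 6.79-fold under NonA RNAi, against 5.01-fold and 6.80-fold in controls.

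Genes that regulate initiation were taken as a list of 19. In edgeR 0 of the 19 passed, 0 had an unadjusted p under 0.05, 10 had a higher and 9 a lower mean, and the median log2 fold was 0.36. Without NonA RNAi replicate 1 the median was -0.12, and that of all genes -0.13. The groups were apart for 8 of the 19 (42.1%, where 32.8% of all genes were), 4 above and 4 below.

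The eIF2alpha kinase genes had their highest values in NonA RNAi replicate 1. PEK, the kinase of endoplasmic reticulum stress, was at 825 and 33.5 CPM under the NonA RNAi label, against 86.3 and 59.4 CPM in the controls. NonA RNAi replicate 1 was thus far above and NonA RNAi replicate 2 below both controls. The log2 fold of 2.56 had a standard error of 1.29 (edgeR adjusted p = 0.919), and without NonA RNAi replicate 1 it was -1.12. Gcn2, the kinase that senses amino acid shortage, was at 132 and 67.8 CPM under NonA RNAi, against 50.8 and 46.2 CPM in controls, with groups apart. Its log2 fold was 1.04 (standard error 0.51, edgeR adjusted p = 0.919), and 0.48 without NonA RNAi replicate 1.

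Downstream of these kinases, crc, the fly homologue of ATF4, was at 1351 and 1423 CPM under NonA RNAi, against 1758 and 2252 CPM in controls. CG3825, listed in RefSeq as PPP1R15, the subunit that directs a phosphatase to eIF2alpha, was at 177 and 162 CPM under NonA RNAi, against 289.7 and 289.5 CPM in controls. Both had groups apart, with a log2 fold of -0.53 (standard error 0.47) for the one and -0.78 (standard error 0.43) for the other (edgeR adjusted p of 0.953 and 0.919). For CG3825 it lay between -0.84 and -0.71 whichever library was left out.

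**Figure D5:**
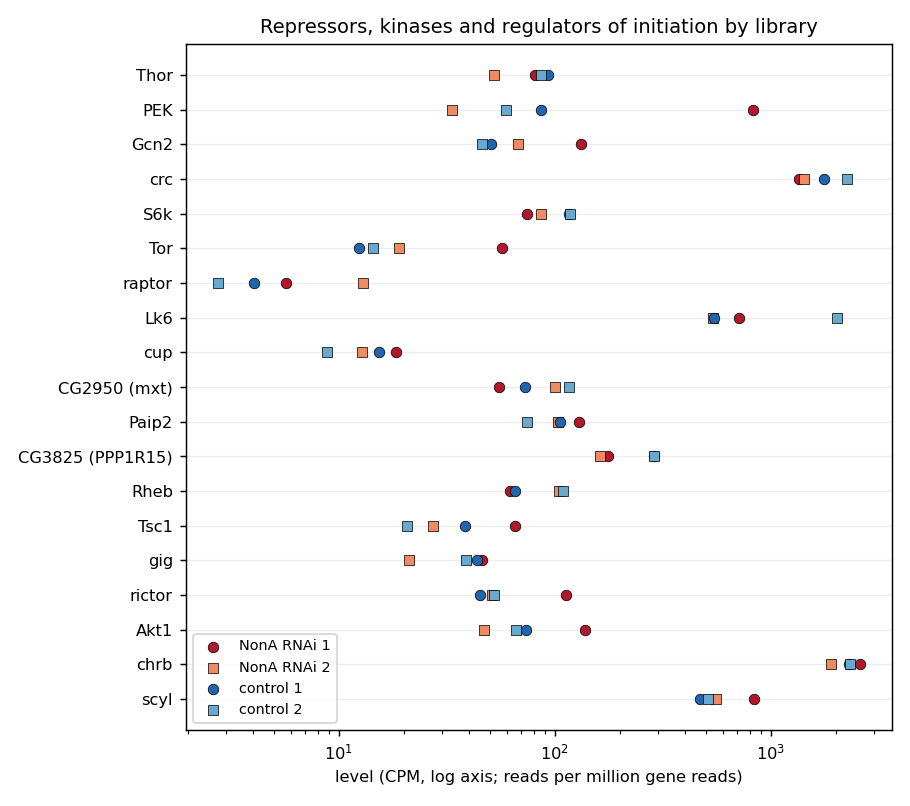
Level in CPM (log axis) of the 19 genes that repress or regulate initiation, 1 row per gene, with 1 point for each library. PEK spans 33.5 to 825 CPM, and for CG3825 the NonA RNAi libraries at 177 and 162 CPM lie below the controls, which coincide at 289.7 and 289.5 CPM.

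Of the genes on the Tor pathway, Thor, the 4E-binding protein gene, had 81.3 and 52.3 CPM under the NonA RNAi label, against 93.1 and 86.1 CPM in the controls (log2 fold -0.42, standard error 0.46). Per exonic kilobase eIF-4E exceeded Thor 1.03-fold and 2.59-fold under NonA RNAi, against 1.29-fold and 1.22-fold in controls. S6k, the ribosomal protein S6 kinase gene, had 74.4 and 86.1 CPM under NonA RNAi, against 116.8 and 117.5 CPM in controls (log2 fold -0.54, standard error 0.41). Tor was at 56.8 and 19.0 CPM under NonA RNAi, against 12.4 and 14.3 CPM in controls, and raptor, its partner, at 5.69 and 13.0 CPM under NonA RNAi, against 4.04 and 2.75 CPM in controls. The log2 fold of Tor was 1.505 with a standard error of 0.70, and 0.51 without NonA RNAi replicate 1. scyl, an inhibitor of the pathway, was at 839 and 556 CPM under NonA RNAi, against 472 and 511 CPM in controls. These 5 genes are named because their groups were apart, and the edgeR adjusted p was 0.919 for Tor and between 0.942 and 0.958 for the other 4. The groups overlapped for the other 6 pathway genes of the list, Rheb, Tsc1, gig, rictor, Akt1 and chrb, at log2 folds from -0.30 for gig to 0.75 for rictor, with -0.05 for chrb, the paralogue of scyl.

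Subunits and relatives of initiation factors without an eIF symbol made up a further list, of which 11 of 14 measured genes were tested. Of these, 7 had a higher and 4 a lower mean, with a median log2 fold of 0.21, and 0 passed edgeR's test or had an unadjusted p under 0.05. The groups were apart for 5 of the 11 (45.5%, where 32.8% of all genes were), namely Int6, Tango7, 4EHP, exba and pAbp, and the last 3 lay below both controls. pAbp, the poly(A)-binding protein gene, had 1013 and 715 CPM under NonA RNAi, against 1148 and 1207 CPM in controls (log2 fold -0.45, standard error 0.47). exba, listed as kra in RefSeq and related to eIF5, was at 751 and 660.3 CPM under NonA RNAi, against 905 and 949.7 CPM in controls (log2 fold -0.39, standard error 0.45).

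For elongation, termination and recycling, 13 genes were tested. Of these, 8 had a higher and 5 a lower mean, with a median log2 fold of 0.29 (-0.22 without NonA RNAi replicate 1), and 0 passed edgeR's test or had an unadjusted p under 0.05. The groups were apart for 4 of the 13 (30.8%, near the 32.8% of all genes). Ef1beta, an elongation factor subunit gene, was at 415 and 265 CPM under the NonA RNAi label, against 207 and 212 CPM in the controls. Elf was at 112 and 117 CPM under NonA RNAi, against 79.6 and 96.4 CPM in controls. eEF1delta, another subunit of the elongation factor, was at 119.5 and 119.7 CPM under the NonA RNAi label, against 219.7 and 181 CPM in the controls. eRF1, which recognises stop codons, was at 185 and 119.9 CPM under NonA RNAi, against 246 and 219 CPM in controls. The log2 folds of eEF1delta and eRF1 were -0.74 and -0.61, with standard errors of 0.43 and 0.46 and edgeR adjusted p of 0.919 and 0.942.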

How the data were processed

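The deposited files hold raw read counts per gene symbol, per the file headers, for 2 NonA RNAi and 2 control libraries, together with a listed length. TopHat2 2.1.1, Cufflinks and build dm3 stand in the submitters' processing notes. No counting program, annotation or strand setting is stated in the sources used here. Library sizes and tests leave aside 5 entries without a gene name. They were the reads aligned to several places (45.2% to 55.6% of all entries), reads without a feature (27.8% to 32.5%), ambiguous reads (0.219% to 0.317%) and unaligned and low-quality reads, both listed at 0. Counts were scaled to the sum of gene reads without a further factor. Genes with a mean of at least 1 CPM (9404) were compared with edgeR 4.0.16 (R 4.3.3), two-sided quasi-likelihood test, Benjamini-Hochberg adjustment over all genes. A standard error is the size of the log2 fold over the root of its F statistic. The common dispersion of 0.544 corresponds to a biological coefficient of variation of 73.7%.

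Alternatives were TMM and median-of-ratios scaling, no filter, a mean of at least 10 CPM, DESeq2 1.42.0, the replicate number as a block and each library left out. Symbols were matched by RefSeq Release 6 names (14002 of 14161, all 28 members). Protein lengths laid down for comparing genes were not used here. Exonic lengths of the Ensembl annotation of BDGP6 replaced them, a choice made after seeing the data. Since the builds differ, no positions are given, and no sequence features were analysed here. The members and lists were chosen with earlier results of these data known. All tested members are named, with full statistics for those with groups apart or the smallest p. Of the other lists, genes with groups apart are named, and Thor, PEK, Gcn2 and nonA always. Other names are further eIF3 subunits, Tor pathway genes and markers from the lists. The eIF3 subunits are those listed and need not make up the whole complex.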

Additional observations from a re-analysis of the deposited data

How the results depend on the processing

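No initiation factor gene was called under any setting run. Over all genes, edgeR called 0 with all 4 libraries, 79 without a filter on low values, and between 0 and 22 with a library left out (22 without control replicate 2), and DESeq2 called 143. The cause of these differences was not tested. The median log2 fold of the initiation factor genes lay between -0.044 and 0.33 with a library left out. It was below 0 only without NonA RNAi replicate 1, where that of all genes was -0.13. The log2 fold of their summed level ranged from -0.089 to 0.11, against 0.01. The number with groups apart was 7 with TMM scaling (28%, and 32.8% of all genes). It was 14 without NonA RNAi replicate 1 (56%, and 62.2% of all genes) and 22 without NonA RNAi replicate 2 (88%, and 72.4%). It was 12 without control replicate 1 (48%, and 61.3% of all genes) and 9 without control replicate 2 (36%, and 64.9%).

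With the replicate number as a block, edgeR called 0 genes and the median log2 fold was 0.14, with -0.028 for eIF6. Deviations of libraries with the same number correlated at -0.0115 over the genes tested. With 2 libraries a group, this cannot show whether the numbers pair the libraries. With TMM scaling eIF-4E had 0.022.

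Leaving out a library changed the sign of 16 of 23 initiation factor genes, 11 of them without NonA RNAi replicate 1. Log2 folds then ranged from -0.30 to 0.17 for eIF-1A, -0.076 to 0.33 for eIF-2alpha, -0.32 to 0.71 for eIF-2beta, -0.13 to 0.42 for eIF2B-alpha, -0.86 to 0.024 for eIF2B-beta, -0.061 to 0.84 for eIF2B-gamma, -0.71 to 0.81 for eIF2B-delta, -0.63 to 1.30 for eIF2B-epsilon, -0.34 to 1.26 for eIF3-S8, -0.55 to 0.19 for eIF3-S9, -0.42 to 0.27 for eIF-4E, -0.25 to 0.037 for eIF4G, -1.28 to 0.075 for eIF-4a, -0.17 to 0.67 for eIF4AIII, -0.055 to 0.73 for eIF5B, -1.70 to 1.48 for eIF6, -1.12 to 3.50 for PEK and -0.57 to 0.19 for nonA. The spread of a group with 1 library was taken from the other group. The standard errors of 0.44 to 0.998 on the log2 scale limit what 2 libraries a group can show.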
